A study of Mus musculus with 8 samples.

Results

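The genes described here are imprinted genes, of which normally a single parental copy is transcribed, followed through a change of medium in which ESCs lose DNA methylation. The set was given as 38 gene symbols in 20 named clusters or single loci, chosen with earlier results of these data known, and a gene belonged to it where its Ensembl identifier carries 1 of these symbols in GENCODE M21. Of the 38 genes, 33 had a row among the 37263 Ensembl genes that were counted, and 32 reached 1 CPM of the unscaled library total in at least 2 libraries. CPM values given below are counts scaled to library size by edgeR's TMM factors. Rian, Mirg, Snrpn, Kcnq1ot1, and Peg13 had no row and were not analysed here. Nap1l5 had a row but was not tested, with 0, 2, 3, and 18 counts at 4, 16, 24, and 32 hr in 2i and 8, 1, 1, and 1 counts with vitC.

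RNA was taken from E14 mouse ESCs, a feeder-independent line, 4, 16, 24, and 32 hr after transfer out of serum into 2i, a serum-free medium with inhibitors of MEK and GSK3. At each time 1 library was made from cells in 2i alone and 1 from cells in 2i with 17 µM vitC, ascorbate, a cofactor of the TET dioxygenases. All 8 libraries came from the same line with no genetic change named in the labels, no serum library was analysed here, and each combination of time and treatment is 1 library. The deposited values are raw counts per gene, with totals of 12940716 to 18434932 counts in 2i and 4753528 to 13157570 with vitC. Reads on Lars2 and on Gm23935 and ENSMUSG00000093077, which follow it, took 0.0113% to 7.11% of counts and were lowest in both 4 hr libraries. Lane 8 held the libraries of 4 and 24 hr and lane 7 those of 16 and 32 hr. The contrast of 24 hr with 4 hr is thus free of a lane difference, while for 16 and 32 hr against 4 hr time cannot be told apart from lane. DNA methylation was not measured in these libraries, and the counts do not separate the parental alleles, so that transcription from 1 copy or both cannot be told apart.

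Imprints are marks of DNA methylation that are set in the egg or sperm at imprinting control regions and decide, in the embryo, which parental copy of the neighbouring genes is used. They persist through the wave of demethylation in the early embryo because the zinc finger protein ZFP57, with TRIM28 and its partners, binds the methylated copy and the maintenance enzyme DNMT1 copies the mark at each division. Many paternally expressed genes favour growth, as Igf2 does, and several maternally expressed ones restrain it, as Igf2r, Cdkn1c, and Grb10 do. Long non-coding RNAs such as H19, Airn, Kcnq1ot1, and Meg3 are transcribed from many of the clusters. In cultured ESCs imprints are known to be unstable, and levels of these genes differ between lines and media.

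ZFP57 recognises the hexamer TGCCGC where its CpG is methylated. This hexamer, read on either strand (TGCCGC or GCGGCA, with overlapping matches counted separately), was searched in the 250 bases before each start site in the RefSeq promoter table of GRCm38.p6. Genes can have more than 1 window, and the number of windows differs between genes. Of the 48 windows of imprinted genes, 9 held the hexamer (18.8%), against 8.68% of all 32851 windows. Of the 38 genes, 31 had an entry in this table, and 8 of them held the hexamer in at least 1 window (25.8%), against 9.84% of the 27025 genes in the table. The 8 were Mest, Copg2, Plagl1, Zdbf2, Meg3, Mcts2, Nap1l5, and Zim1. A match describes the letters of the window and is not evidence of binding. Windows are shown for 4 of these that are described below, 5′ to 3′ on the plus strand, on which these genes are transcribed, with each hexamer in capitals. For each gene the window shown is the most upstream of those that hold the hexamer, and was thus picked for holding it. Which start site the counted reads came from is not known. The stretch between the divergent starts of Peg3 and Usp29, of which Usp29 passed the test below and Peg3 did not, is shown on the strand of Usp29 and holds no hexamer. The coordinates are of GRCm38.p6 and not of the build on which the reads were counted.
Mest, chr6:30737800-30738049: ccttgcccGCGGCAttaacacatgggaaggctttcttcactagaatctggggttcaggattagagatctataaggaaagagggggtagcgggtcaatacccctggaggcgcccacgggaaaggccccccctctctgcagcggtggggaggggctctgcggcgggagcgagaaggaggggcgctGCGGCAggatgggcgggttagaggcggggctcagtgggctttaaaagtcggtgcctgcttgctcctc
Plagl1, chr10:13090582-13090831: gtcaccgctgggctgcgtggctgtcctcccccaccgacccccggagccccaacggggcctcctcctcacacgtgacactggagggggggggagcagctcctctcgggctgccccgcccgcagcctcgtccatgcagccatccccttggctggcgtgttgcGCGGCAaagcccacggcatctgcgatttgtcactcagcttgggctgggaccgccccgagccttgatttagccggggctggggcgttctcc
Meg3, chr12:109540746-109540995: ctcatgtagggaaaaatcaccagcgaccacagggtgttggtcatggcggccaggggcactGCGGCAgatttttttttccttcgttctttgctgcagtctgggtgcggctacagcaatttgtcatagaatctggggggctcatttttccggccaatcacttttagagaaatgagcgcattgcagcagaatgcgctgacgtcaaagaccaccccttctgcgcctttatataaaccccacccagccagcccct
Zdbf2, chr1:63200108-63200357: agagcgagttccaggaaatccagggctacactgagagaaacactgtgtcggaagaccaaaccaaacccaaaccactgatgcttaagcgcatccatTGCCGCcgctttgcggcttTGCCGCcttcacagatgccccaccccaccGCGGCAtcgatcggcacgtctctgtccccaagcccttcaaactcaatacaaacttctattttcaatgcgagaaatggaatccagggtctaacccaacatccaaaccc
Peg3 to Usp29, chr7:6730420-6730582: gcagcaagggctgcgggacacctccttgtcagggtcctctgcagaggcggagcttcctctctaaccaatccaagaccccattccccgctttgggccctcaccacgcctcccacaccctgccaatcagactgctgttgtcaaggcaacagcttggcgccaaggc
These windows held 2 hexamers in Mest, 1 in Plagl1, 1 in Meg3, and 3 in Zdbf2. Mest and Zdbf2 were lower at 32 hr than at 4 hr and Plagl1 and Meg3 were higher, as given below, so that windows with the hexamer lay before genes of both directions.

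The imprinted genes spanned a wide range of expression. Per kb of exon, the highest mean levels over the 8 libraries were those of Slc38a4, an amino acid transporter, at 133 CPM per kb and Peg10, a gene derived from a retrotransposon and needed in the placenta, at 125 CPM per kb. Impact, an inhibitor of the GCN2 kinase pathway, followed at 57.1 CPM per kb and Igf2, the fetal growth factor, at 35.9 CPM per kb. At the lower end, Dlk1, a membrane protein related to the Notch ligands, had 0.14 CPM per kb, Magel2 0.211, Zim1 0.234, and Usp29 0.299 CPM per kb. The plot of levels per length shows that the 8 libraries of Slc38a4 stayed close together, whereas those of Igf2, Peg10, Ascl2, Plagl1, and Usp29 spread widely. Of the 31 pairs of neighbours in this order of the tested genes, 29 overlapped over the 8 libraries, as Slc38a4 and Peg10 did, and the pairs that did not were Inpp5f above Meg3 and Slc22a18 above Airn.

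**Figure D1:**
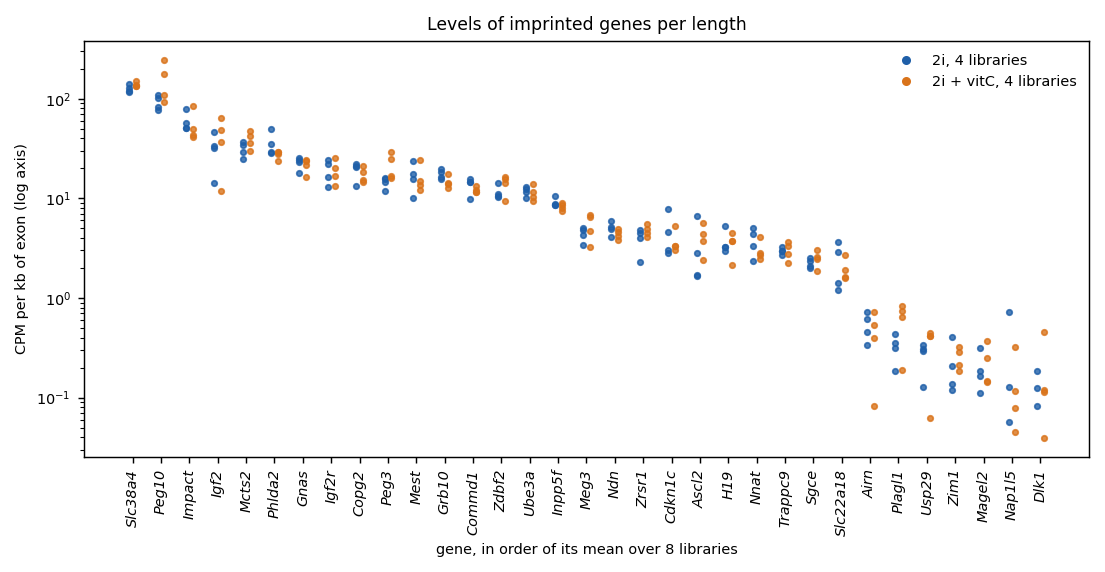
Levels of the 33 imprinted genes with a row, as TMM-scaled CPM per kb of merged GENCODE M21 exon (vertical log axis), in order of the mean over 8 libraries. Each point is 1 library (blue, 2i; orange, 2i with vitC), libraries with 0 counts of a gene are not drawn, and Slc38a4 and Peg10 stand highest and Dlk1 lowest.

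To ask how these genes moved along the serum-to-2i transition, edgeR's quasi-likelihood test was fitted to all 8 libraries with terms for time and treatment, and p-values were adjusted by the method of Benjamini and Hochberg over the 14931 genes tested. The error of this fit, with 3 residual degrees of freedom, measures how far the courses in 2i and with vitC depart from each other, since there were no replicate cultures, and fold changes below are log2 values from this fit with their standard error. At 24 hr against 4 hr, 13 of the 32 imprinted genes passed an adjusted p-value of 0.05, against 20.5% of all genes tested. Of these 13, 8 were higher at 24 hr (Igf2, Usp29, Plagl1, Peg10, Meg3, Igf2r, Copg2, and Gnas) against 11.5% of all genes, and 5 were lower (Ascl2, Cdkn1c, Mest, Nnat, and Impact) against 8.98%. At 16 hr 7 of 32 passed, against 16.4% of all genes, with 5 higher (9.16% of all genes) and 2 lower (7.24%), and at 32 hr 14 of 32 passed, against 25.3%, with 8 higher (13.5%) and 6 lower (11.8%). Over the 3 times, 16 of 32 passed at least once, against 32.8% of all genes. The median log2 fold change of the 32 genes was 0.31 after 16 hr, 0.17 after 24 hr, and -0.0047 after 32 hr, and that of all genes was 0.0060, 0.0076, and 0.0048. At each time some imprinted genes were higher and others lower than at 4 hr.

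**Figure D2:**
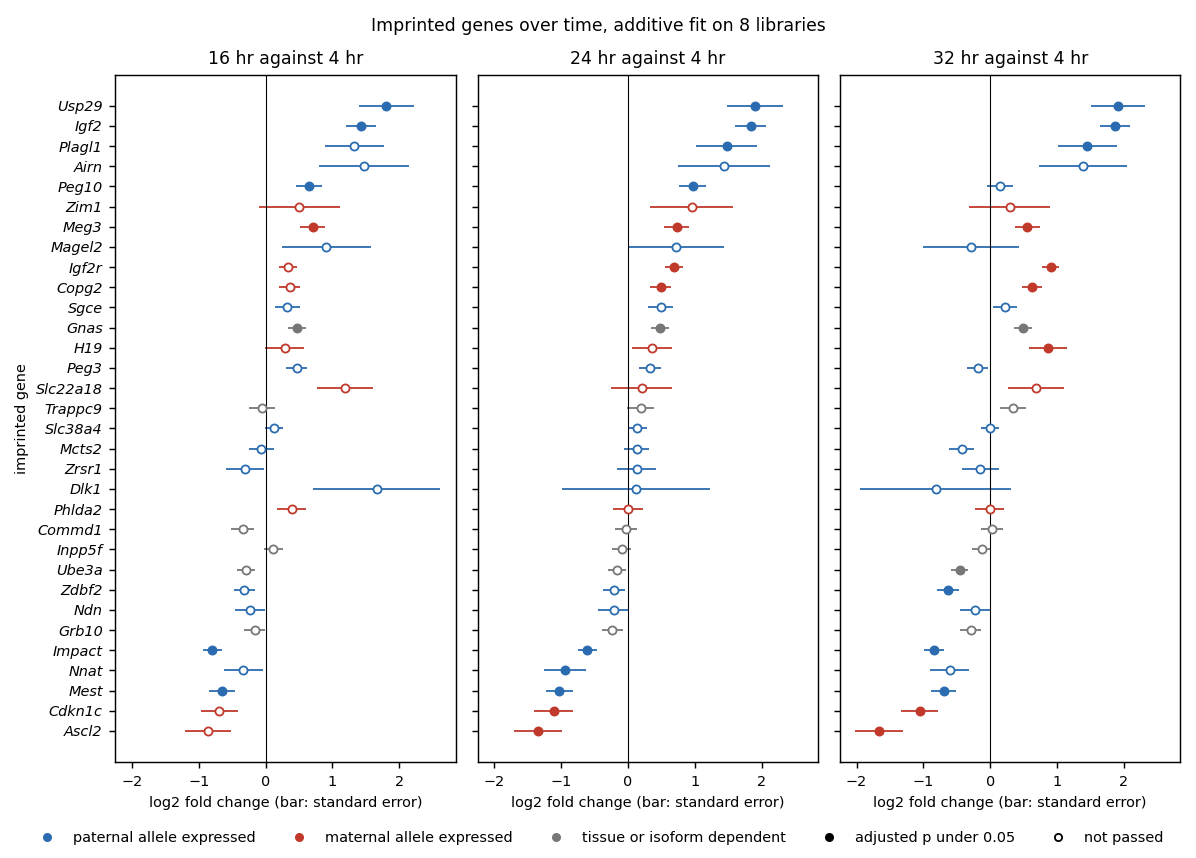
Log2 fold changes of the 32 tested imprinted genes at 16, 24, and 32 hr against 4 hr (horizontal axis, 1 panel per time), with bars of 1 standard error from edgeR's additive fit. Filled points passed an adjusted p-value of 0.05, colours mark the allele known to be expressed, and Usp29 and Igf2 stand highest at 24 hr and Ascl2 lowest, with genes of both parental classes on both sides of 0.

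Between 32 and 16 hr, within lane 7, 0 of 32 imprinted genes passed in edgeR, against 0.583% of all genes (0.335% higher and 0.248% lower), and 6 had an unadjusted p under 0.05 against 14.3% of all genes. In DESeq2 2 passed, which were Peg3 and Igf2r, but DESeq2 also called more of all genes here than edgeR, as counted in the last section. With the log2 share of the Lars2 reads as a covariate, an alternative added after seeing the data, 0 of the 34 calls at single times remained. With offsets for GC content and length, 24 hr against 4 hr had 4 imprinted genes higher and 7 lower in place of 8 and 5, and all genes had 1368 higher and 1882 lower in place of 1720 and 1341. At 16 hr the same offsets gave 2 imprinted genes higher and 3 lower in place of 5 and 2, and all genes 1119 higher and 1525 lower in place of 1367 and 1081. Single libraries also weighed on the counts, both of imprinted genes and of all genes, and the last section gives the ranges of both side by side. A fit without a library has 2 residual degrees of freedom.

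**Figure D3:**
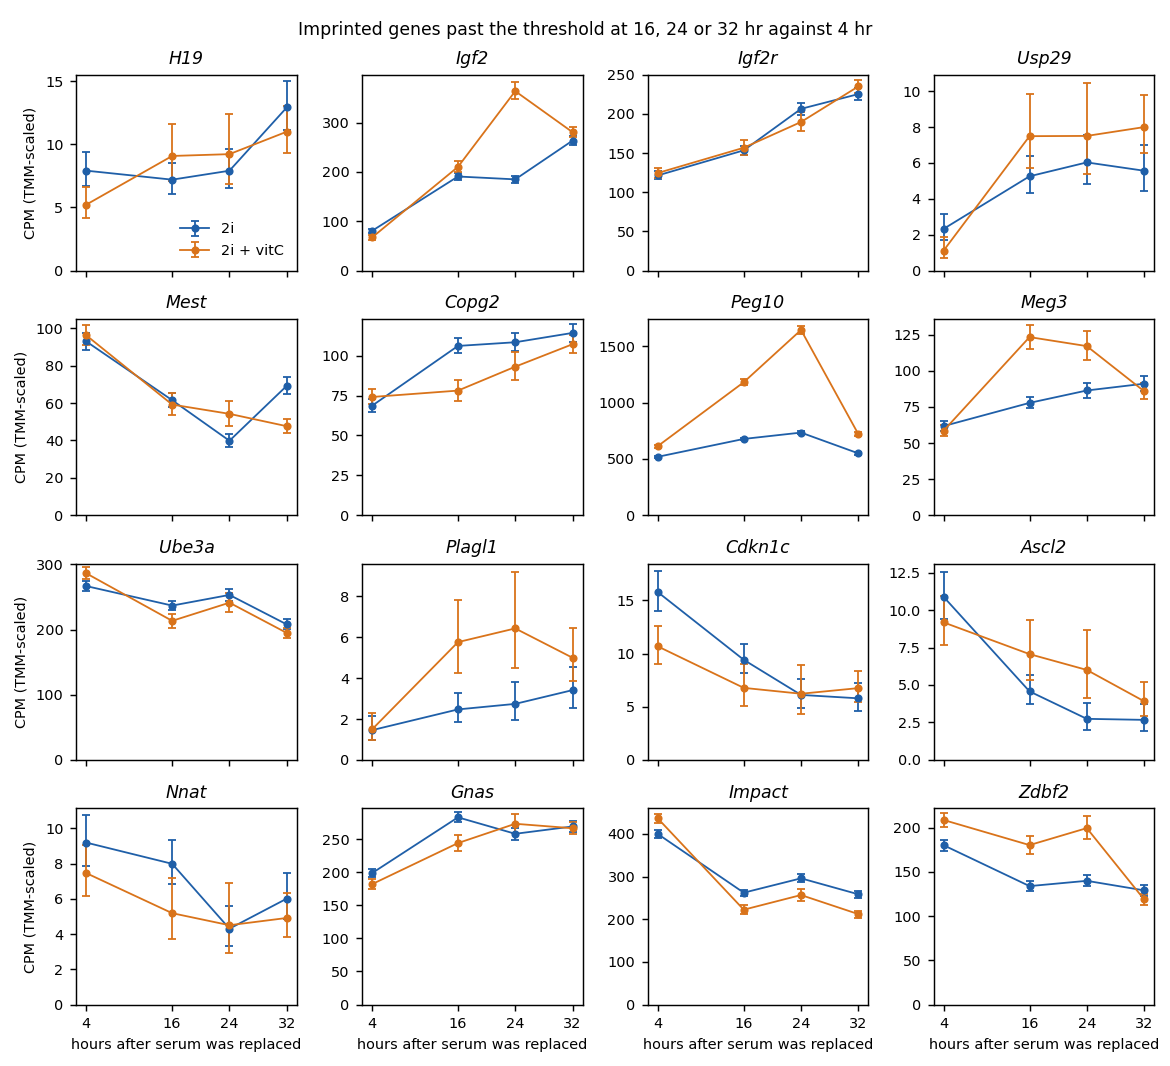
Level of the 16 imprinted genes that passed the test at 16, 24, or 32 hr against 4 hr, as TMM-scaled CPM (vertical axes, each from 0), by hours after serum was replaced (horizontal axes). Blue points are the 4 libraries in 2i and orange points the 4 with vitC, 1 library each, with bars of the 95% Wilson interval, which covers counting error only, and Igf2, Usp29, and Igf2r are lowest in both treatments at 4 hr.

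In the Igf2-H19 cluster, Igf2 rose at all 3 later times. Igf2 read 80.7, 191, 185, and 264 CPM at 4, 16, 24, and 32 hr in 2i, and 67.3, 210.4, 364, and 281 CPM at the same times with vitC. Both 4 hr libraries lay below all 6 later ones. Igf2 rose at 16 hr (log2 fold change 1.42 ± 0.226 (SE), adjusted p = 0.00224), at 24 hr (1.84 ± 0.23 (SE), adjusted p = 0.00036), and at 32 hr (1.86 ± 0.228 (SE), adjusted p = 0.000178). Igf2 kept its calls in all 24 fits that left out 1 library (1.11 to 2.30). H19, the maternally expressed non-coding RNA that shares enhancers with Igf2, was scarcer. H19 read 7.91, 7.2, 7.91, and 12.9 CPM at 4, 16, 24, and 32 hr in 2i, and 5.22, 9.08, 9.22, and 11 CPM at the same times with vitC, from 136, 137, 101, and 174 counts in 2i and 70, 63, 43, and 132 counts with vitC. H19 was highest in both 32 hr libraries and passed at 32 hr only (0.86 ± 0.282 (SE), adjusted p = 0.0414). Of 8 fits that left out 1 library, H19 was past the threshold in all but 5, which lacked 2i 24 hr, 2i 32 hr, vitC 4 hr, vitC 24 hr, or vitC 32 hr (fold changes 0.55 to 1.24 over all 8, adjusted p up to 0.295), and the call was also lost in DESeq2 at 32 hr (adjusted p up to 0.0618), with GC and length offsets at 32 hr (adjusted p up to 0.0691), and with no treatment term at 32 hr (adjusted p up to 0.0624). The known pattern of this cluster is reciprocal use of these genes by the parental copies, and here both were higher at 32 hr than at 4 hr in both treatments.

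Igf2r, the receptor that clears IGF2 from the cell surface, is expressed from the maternal copy where Airn, the non-coding RNA that silences the paternal copy, is active. Igf2r read 122, 154, 207, and 225 CPM at 4, 16, 24, and 32 hr in 2i, and 125, 157, 189.8, and 235 CPM at the same times with vitC. The values climbed at each step in both treatments, and the treatments lay close together. Igf2r rose at 24 hr (0.69 ± 0.133 (SE), adjusted p = 0.00417) and at 32 hr (0.90 ± 0.133 (SE), adjusted p = 0.000593), while at 16 hr it stood at 0.33, adjusted p = 0.103. Of 16 fits that left out 1 library, Igf2r was past the threshold in all but 1, which lacked 2i 24 hr (fold changes 0.60 to 0.94 over all 16, adjusted p up to 0.0592). Airn had 21, 31, 28, and 35 counts in 2i and 4, 18, 9, and 17 counts with vitC at 4, 16, 24, and 32 hr. Its log2 fold changes were 1.48, 1.44, and 1.39 at 16, 24, and 32 hr against 4 hr (adjusted p = 0.153, 0.158, and 0.138).

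In the Peg3 cluster, Usp29 passed the test at 3 times and Peg3 and Zim1 at none. Peg3, a zinc finger protein linked to apoptosis and growth, and Usp29, which belongs to the deubiquitinase family, are both paternally expressed from the divergent promoter region shown above. Usp29 read 2.33, 5.26, 6.03, and 5.57 CPM at 4, 16, 24, and 32 hr in 2i, and 1.12, 7.49, 7.51, and 8.0 CPM at the same times with vitC, from 40, 100, 77, and 75 counts in 2i and 15, 52, 35, and 96 counts with vitC. Both 4 hr libraries lay below all later ones. Usp29 rose at 16 hr (1.80 ± 0.41 (SE), adjusted p = 0.0125), 24 hr (1.90 ± 0.417 (SE), adjusted p = 0.00784), and 32 hr (1.91 ± 0.407 (SE), adjusted p = 0.00517). Of 24 fits that left out 1 library, Usp29 was past the threshold in all but 6, which lacked vitC 4 hr, vitC 16 hr, vitC 24 hr, or vitC 32 hr (fold changes 1.19 to 2.81 over all 24, adjusted p up to 0.106). Peg3 itself was far more abundant. Peg3 read 194, 215, 209, and 158 CPM at 4, 16, 24, and 32 hr in 2i, and 223, 385, 333, and 214 CPM at the same times with vitC. Peg3 was highest at 16 hr and lowest at 32 hr in both treatments, and the log2 fold changes of Peg3 were 0.46, 0.33, and -0.19 at 16, 24, and 32 hr against 4 hr (adjusted p = 0.0662, 0.164, and 0.415). Zim1, a maternally expressed zinc finger gene beside them, had 19, 32, 42, and 13 counts in 2i and 23, 16, 7, and 31 counts with vitC and passed at no time.

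Mest and Copg2 overlap tail to tail on opposite strands, and moved in opposite directions. Mest, a hydrolase family gene expressed from the paternal copy, was most abundant in both 4 hr libraries. Mest read 93, 61.6, 39.9, and 69.2 CPM at 4, 16, 24, and 32 hr in 2i, and 96.3, 59.2, 54.3, and 47.7 CPM at the same times with vitC. All 6 later libraries lay below both 4 hr ones. Mest fell at 16 hr (-0.65 ± 0.192 (SE), adjusted p = 0.0378), 24 hr (-1.02 ± 0.197 (SE), adjusted p = 0.00409), and 32 hr (-0.70 ± 0.192 (SE), adjusted p = 0.0196). Of 24 fits that left out 1 library, Mest was past the threshold in all but 8, which lacked 2i 4 hr, 2i 16 hr, 2i 24 hr, vitC 4 hr, vitC 16 hr, or vitC 32 hr (fold changes -1.34 to -0.37 over all 24, adjusted p up to 0.27), and the call was also lost with no treatment term at 16 hr (adjusted p up to 0.0679). Copg2, a coat protein subunit gene, read 68.6, 106, 108, and 114 CPM at 4, 16, 24, and 32 hr in 2i and 74.1, 78.1, 93.1, and 107 CPM with vitC. The 4 hr library was the lowest of its treatment in both cases. Copg2 rose at 24 hr (0.49 ± 0.155 (SE), adjusted p = 0.0408) and 32 hr (0.63 ± 0.153 (SE), adjusted p = 0.0108). Of 16 fits that left out 1 library, Copg2 was past the threshold in all but 9, which lacked 2i 4 hr, 2i 24 hr, 2i 32 hr, vitC 4 hr, vitC 24 hr, or vitC 32 hr (fold changes 0.31 to 0.81 over all 16, adjusted p up to 0.275), and the call was also lost with GC and length offsets at 24 hr (adjusted p up to 0.0513) and with no treatment term at 24 hr (adjusted p up to 0.0772). The exons of Copg2 in GENCODE M21 share 17.8% of their bases with Mest on the other strand and those of Mest 23.1% with Copg2. The strand setting of the counting is not given in the sources used here, so that reads in this overlap cannot be told apart.

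Peg10 and Sgce, an epsilon-sarcoglycan gene, are paternally expressed from a shared promoter region. Peg10 read 519, 678, 734, and 549.9 CPM at 4, 16, 24, and 32 hr in 2i, and 614, 1181, 1645, and 721 CPM at the same times with vitC. In both treatments Peg10 was highest at 24 hr, and at 32 hr it was nearer to its 4 hr level than at 24 hr. Peg10 rose at 16 hr (0.65 ± 0.196 (SE), adjusted p = 0.0398) and 24 hr (0.97 ± 0.197 (SE), adjusted p = 0.00549), while at 32 hr it stood at 0.15, adjusted p = 0.61. Of 16 fits that left out 1 library, Peg10 was past the threshold in all but 7, which lacked 2i 16 hr, 2i 32 hr, vitC 4 hr, vitC 16 hr, vitC 24 hr, or vitC 32 hr (fold changes 0.38 to 1.30 over all 16, adjusted p up to 0.362), and the call was also lost with GC and length offsets at 16 hr (adjusted p up to 0.0558) and with no treatment term at 16 and 24 hr (adjusted p up to 0.209). Sgce read 19.8 to 32 CPM over the 8 libraries, and its log2 fold changes were 0.32, 0.49, and 0.22 at 16, 24, and 32 hr against 4 hr (adjusted p = 0.253, 0.0849, and 0.41). The 24 hr maximum of Peg10 was 1645 CPM with vitC, in the library with the fewest counts, and 734 CPM in 2i.

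In the Dlk1-Meg3 cluster, Meg3, the maternally expressed non-coding RNA often lost in ESC lines by gain of methylation, was well expressed. Meg3 read 61.7, 77.8, 86.4, and 91.1 CPM at 4, 16, 24, and 32 hr in 2i, and 58.6, 123, 117, and 85.9 CPM at the same times with vitC. Every later library of Meg3 lay above both 4 hr libraries. Meg3 rose at 16 hr (0.71 ± 0.186 (SE), adjusted p = 0.024), 24 hr (0.73 ± 0.187 (SE), adjusted p = 0.0163), and 32 hr (0.56 ± 0.184 (SE), adjusted p = 0.0433). Of 24 fits that left out 1 library, Meg3 was past the threshold in all but 9, which lacked 2i 24 hr, 2i 32 hr, vitC 4 hr, vitC 16 hr, vitC 24 hr, or vitC 32 hr (fold changes 0.33 to 1.00 over all 24, adjusted p up to 0.414), and the call was also lost with GC and length offsets at 16, 24, and 32 hr (adjusted p up to 0.183) and with no treatment term at 16 and 32 hr (adjusted p up to 0.0976). Dlk1, its paternally expressed partner, had 12, 20, 6, and 0 counts in 2i and 3, 18, 3, and 8 counts with vitC at 4, 16, 24, and 32 hr and passed at no time.

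Of the Snrpn cluster, the region of the Prader-Willi and Angelman syndromes, Ndn, Magel2, and Ube3a were measured. Ube3a, a ubiquitin ligase gene that is imprinted in neurons, read 267, 237, 253, and 208 CPM in 2i at 4, 16, 24, and 32 hr and 286, 213, 241, and 195 CPM with vitC. Ube3a was lowest at 32 hr in both treatments and fell there (-0.46 ± 0.134 (SE), adjusted p = 0.0257). Of 8 fits that left out 1 library, Ube3a was past the threshold in all but 3, which lacked 2i 32 hr, vitC 4 hr, or vitC 32 hr (fold changes -0.56 to -0.36 over all 8, adjusted p up to 0.196). Ndn, a MAGE family gene, read 14.1 to 22.1 CPM and stood at -0.23, -0.21, and -0.23 at 16, 24, and 32 hr against 4 hr (adjusted p = 0.513, 0.545, and 0.486). Magel2, another MAGE family gene, had 7 to 28 counts per library and passed at no time. Snrpn had no row under its own symbol. A row that GENCODE M21 names Gm38393, a locus that spans Snurf and Snrpn and shares 27.3% of the exon bases of Snrpn, was looked up after its values were seen. Gm38393 is no member by the rule, and it read 142, 86.2, 78.4, and 87.1 CPM in 2i and 121, 68.3, 73.8, and 72.2 CPM with vitC, with all later libraries below both 4 hr ones (-0.78 ± 0.137 (SE), adjusted p = 0.00235 at 24 hr).

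The measured genes of the Kcnq1ot1 cluster are maternally expressed. Cdkn1c, an inhibitor of cyclin-dependent kinases, and Ascl2, a basic helix-loop-helix factor of the trophoblast, were both at low levels. Cdkn1c read 15.8, 9.41, 6.11, and 5.79 CPM at 4, 16, 24, and 32 hr in 2i, and 10.7, 6.77, 6.22, and 6.75 CPM at the same times with vitC, from 271, 179, 78, and 78 counts in 2i and 143, 47, 29, and 81 with vitC. Ascl2 read 10.9, 4.57, 2.74, and 2.67 CPM at 4, 16, 24, and 32 hr in 2i, and 9.18, 7.06, 6.0, and 3.92 CPM at the same times with vitC, from 187, 87, 35, and 36 counts in 2i and 123, 49, 28, and 47 with vitC. For each gene both 4 hr libraries lay above all 6 later ones. Cdkn1c fell at 24 hr (-1.11 ± 0.291 (SE), adjusted p = 0.0189) and 32 hr (-1.06 ± 0.278 (SE), adjusted p = 0.0158), and Ascl2 fell at 24 hr (-1.35 ± 0.365 (SE), adjusted p = 0.0215) and 32 hr (-1.66 ± 0.354 (SE), adjusted p = 0.00517). Of 16 fits that left out 1 library, Cdkn1c was past the threshold in all but 5, which lacked 2i 4 hr, 2i 24 hr, 2i 32 hr, or vitC 24 hr (fold changes -1.35 to -0.76 over all 16, adjusted p up to 0.187). Of 16 fits that left out 1 library, Ascl2 was past the threshold in all but 6, which lacked 2i 4 hr, 2i 24 hr, 2i 32 hr, vitC 24 hr, or vitC 32 hr (fold changes -2.13 to -0.81 over all 16, adjusted p up to 0.259), and the call was also lost with no treatment term at 24 hr (adjusted p up to 0.0684). Phlda2, a growth-restraining gene of the placenta, read 26.6 to 55.9 CPM and stood at 0.39, 0.00, and -0.01 at 16, 24, and 32 hr against 4 hr (adjusted p = 0.239, 0.998, and 0.986). Slc22a18, a transporter gene with 15 to 117 counts per library, passed at no time. The 6 trophoblast markers summed to 17, 11.2, 9.4, and 7.72 CPM in 2i and 21.3, 12.7, 10.9, and 9.0 CPM with vitC at 4, 16, 24, and 32 hr. Of the 5 that were tested, Cdx2 and Eomes fell at each later time and 0 rose, while the log2 fold change at 24 hr was 1.13, adjusted p = 0.308 for Gata3, 0.97, adjusted p = 0.396 for Hand1, and 0.48, adjusted p = 0.521 for Plac1. The 5 had median log2 fold changes of 0.31, 0.48, and 0.34 at 16, 24, and 32 hr, and Elf5, a defining marker, had 0 to 10 counts per library. The part of trophoblast-like cells in the falls of Ascl2 and Cdkn1c was not tested. In bulk RNA, fewer cells of a type and less RNA per cell cannot be told apart.

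Of the single-gene loci, Plagl1, a zinc finger factor and tumour suppressor, rose from low levels. Plagl1 read 1.45, 2.47, 2.74, and 3.41 CPM at 4, 16, 24, and 32 hr in 2i, and 1.49, 5.76, 6.43, and 5.0 CPM at the same times with vitC, from 25, 47, 35, and 46 counts in 2i and 20, 40, 30, and 60 with vitC. Both 4 hr libraries lay below all later ones. Plagl1 rose at 24 hr (1.48 ± 0.455 (SE), adjusted p = 0.0372) and 32 hr (1.45 ± 0.441 (SE), adjusted p = 0.03), and at 16 hr it stood at 1.33, adjusted p = 0.0596. Of 16 fits that left out 1 library, Plagl1 was past the threshold in all but 8, which lacked 2i 24 hr, 2i 32 hr, vitC 4 hr, vitC 24 hr, or vitC 32 hr (fold changes 1.00 to 1.98 over all 16, adjusted p up to 0.291), and the call was also lost with GC and length offsets at 24 hr (adjusted p up to 0.0555) and with no treatment term at 24 and 32 hr (adjusted p up to 0.0956). Gnas, which encodes the stimulatory G protein alpha subunit in a locus of many transcripts, read 199, 283, 258, and 269 CPM in 2i and 182, 244, 273, and 267 CPM with vitC. Its 4 hr libraries were the lowest, and Gnas rose at 16 hr (0.47 ± 0.136 (SE), adjusted p = 0.035), 24 hr (0.48 ± 0.137 (SE), adjusted p = 0.0261), and 32 hr (0.49 ± 0.136 (SE), adjusted p = 0.0197). Of 24 fits that left out 1 library, Gnas was past the threshold in all but 14, which lacked 2i 4 hr, 2i 16 hr, 2i 24 hr, 2i 32 hr, vitC 4 hr, vitC 24 hr, or vitC 32 hr (fold changes 0.38 to 0.58 over all 24, adjusted p up to 0.255), and the call was also lost with GC and length offsets at 16, 24, and 32 hr (adjusted p up to 0.641) and with no treatment term at 16 hr (adjusted p up to 0.0589). Of the Gnas exons, 22.0% of bases are shared with antisense genes that include Nespas, and reads there cannot be told apart without a known strand setting.

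Impact, which is paternally expressed, fell in both treatments. Impact read 399.8, 262, 296, and 259 CPM at 4, 16, 24, and 32 hr in 2i, and 436, 222, 257, and 212 CPM at the same times with vitC. All later libraries lay below both 4 hr libraries. Impact fell at 16 hr (-0.80 ± 0.144 (SE), adjusted p = 0.00427), 24 hr (-0.61 ± 0.144 (SE), adjusted p = 0.012), and 32 hr (-0.84 ± 0.144 (SE), adjusted p = 0.00155). Of 24 fits that left out 1 library, Impact was past the threshold in all but 4, which lacked 2i 24 hr, vitC 4 hr, or vitC 24 hr (fold changes -1.02 to -0.42 over all 24, adjusted p up to 0.174). Zdbf2, a zinc finger gene whose imprint is set through an early transcript, read 180.1, 134, 139.9, and 129 CPM in 2i and 209, 180.2, 199, and 119 CPM with vitC and fell at 32 hr (-0.63 ± 0.162 (SE), adjusted p = 0.0136). Of 8 fits that left out 1 library, Zdbf2 was past the threshold in all but 3, which lacked 2i 4 hr, vitC 4 hr, or vitC 32 hr (fold changes -0.90 to -0.39 over all 8, adjusted p up to 0.206). Nnat, a neuronal proteolipid gene, read 9.19, 7.99, 4.31, and 6.01 CPM in 2i and 7.46, 5.19, 4.5, and 4.92 CPM with vitC, from 158, 152, 55, and 81 and 100, 36, 21, and 59 counts. Nnat fell at 24 hr (-0.94 ± 0.31 (SE), adjusted p = 0.0483). In all 8 fits that left out 1 library Nnat was not past the threshold (fold changes -1.14 to -0.68, adjusted p up to 0.369), and the call was also lost in DESeq2 at 24 hr (adjusted p up to 0.084) and with no treatment term at 24 hr (adjusted p up to 0.0897).

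The other imprinted genes passed at no time. Slc38a4 read 495 to 649 CPM, with log2 fold changes of 0.13, 0.14, and 0.00 at 16, 24, and 32 hr against 4 hr (adjusted p = 0.562, 0.508, and 0.993). Grb10, an adaptor protein that restrains growth signalling, read 116 to 181 CPM and stood at -0.16, -0.23, and -0.29 at 16, 24, and 32 hr against 4 hr (adjusted p = 0.51, 0.322, and 0.188). Mcts2, a retrogene copy of Mcts1, read 22.8 to 43.5 CPM, and Zrsr1, a retrogene copy of Zrsr2, read 10.2 to 24.8 CPM, and for both reads may be shared with the parent gene. Commd1, the gene in whose intron Zrsr1 lies, read 57.9 to 93.5 CPM, Trappc9 17.9 to 28.9 CPM, and Inpp5f, a phosphoinositide phosphatase gene with an imprinted isoform, 62.6 to 87.3 CPM. Counts per gene do not separate the imprinted isoforms of Inpp5f, Grb10, or Gnas from the others.

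Sorted by the parental copy that is known to be expressed, both classes held genes that rose and genes that fell. Of the 17 tested paternally expressed genes, 3 were higher and 2 lower at 16 hr, 4 higher and 3 lower at 24 hr, and 3 higher and 3 lower at 32 hr. Of all genes, 9.16% were higher and 7.24% lower at 16 hr, 11.5% and 8.98% at 24 hr, and 13.5% and 11.8% at 32 hr. Of the 9 maternally expressed genes, 1 was higher and 0 lower at 16 hr, 3 higher and 2 lower at 24 hr, and 4 higher and 2 lower at 32 hr. The median log2 fold change at 16 hr was 0.32 for the paternally expressed genes and 0.36 for the maternally expressed ones, against 0.0060 for all genes, at 24 hr it was 0.14 and 0.36, against 0.0076, and at 32 hr it was -0.19 and 0.56, against 0.0048. The difference between the classes was not tested. The 6 genes whose imprint depends on tissue or isoform had 1 higher and 0 lower at 16 and at 24 hr. At 32 hr they had 1 higher, Gnas, and 1 lower, Ube3a. Within clusters, neighbours could go the same way, as Igf2 and H19 at 32 hr and Cdkn1c and Ascl2 at 24 and 32 hr, or opposite ways, as Mest and Copg2. Igf2, Usp29, Meg3, and Gnas were higher at all 3 later times (4 of 32, against 6.36% of all genes), and Mest and Impact were lower at all 3 (2 of 32, against 4.38%).

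VitC was tested over the 4 pairs of libraries with time as a block, to ask whether these genes differed with it. In edgeR 0 of 32 imprinted genes passed, against 0.167% of all genes (25 of 14931, 0.107% higher and 0.0603% lower). At an unadjusted p under 0.05 there were 7, against 13.8% of all genes. DESeq2, which called more of all genes for vitC than edgeR did (counted in the last section), passed 2, which were Peg3 and Peg10. Peg3 stood at 0.54 ± 0.114 (SE), adjusted p = 0.0635 in edgeR, with log2 ratios of vitC over 2i of 0.20, 0.84, 0.67, and 0.44 at 4, 16, 24, and 32 hr. Peg10 stood at 0.65 ± 0.139 (SE), adjusted p = 0.0664, with ratios of 0.24, 0.80, 1.16, and 0.39. For both genes vitC lay above 2i in 4 of 4 pairs, with the smallest ratio at 4 hr. Both passed in edgeR without the 2i 4 hr library (Peg3 0.65, adjusted p = 0.015 and Peg10 0.79, adjusted p = 0.0152) and without the vitC 4 hr library (Peg3 0.67, adjusted p = 0.0138 and Peg10 0.80, adjusted p = 0.0144). These fits are not separate support. With time as a block, either omission leaves the vitC effect to the pairs of 16, 24, and 32 hr, without the pair of smallest ratio. The share of reads on Lars2 was higher with vitC than in 2i at 16, 24, and 32 hr and lower at 4 hr, and with its log2 as a covariate 0 of 32 imprinted genes passed.

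Plagl1 was the other gene above 2i at all 4 times, with log2 ratios of 0.03, 1.17, 1.18, and 0.53 from 20 to 60 counts per library and a fitted effect of 0.78 ± 0.308 (SE), adjusted p = 0.281. Grb10 was the 1 gene below at all 4, with ratios of -0.07, -0.64, -0.20, and -0.15 and a fitted effect of -0.27 ± 0.111 (SE), adjusted p = 0.312. Ratios above 0 at all 4 times were thus seen in 3 of 32 imprinted genes, against 11% of all genes, and ratios below 0 at all 4 in 1 of 32, against 10.7%. Igf2 had ratios of -0.26, 0.14, 0.98, and 0.09, so that vitC lay below 2i at 4 hr and furthest above it at 24 hr, and its fitted effect was 0.24 ± 0.158 (SE), adjusted p = 0.546. H19 had ratios of -0.58, 0.33, 0.22, and -0.23 and Meg3 of -0.08, 0.66, 0.44, and -0.08. A linear trend of the vitC difference over hours was called for 0 of the 32 genes (0 of 14931 genes passed, with 431 at an unadjusted p under 0.05, 1 of them an imprinted gene, and DESeq2 was not run for this term).

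**Figure D4:**
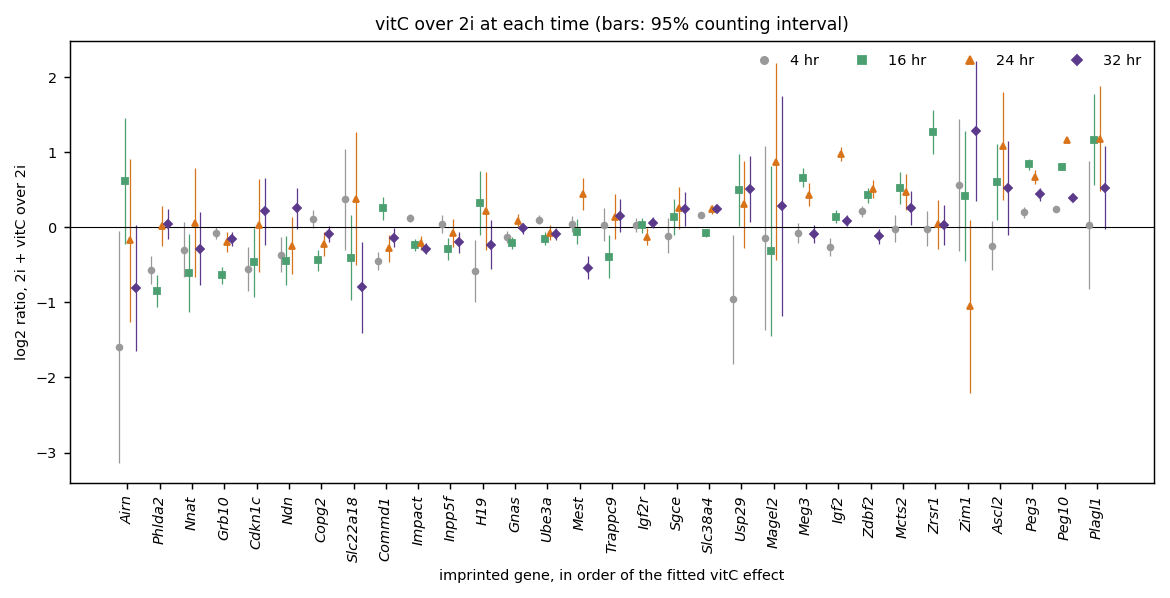
Log2 ratio of 2i with vitC over 2i alone (vertical axis) at 4, 16, 24, and 32 hr for 31 of the 32 tested imprinted genes, in order of edgeR's fitted vitC effect. Each point compares 1 pair of libraries, bars are 95% counting intervals, Dlk1 with 0 counts in a library is left out, and Peg3 and Peg10 lie above 0 at all 4 times while most genes lie on both sides of 0.

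Genes whose proteins write, read, and keep imprints were followed as RNA in a list of 24 genes, all of which were tested. Protein was not measured in these libraries. The paper on these data reports less UHRF1 protein in 2i while Uhrf1 mRNA was unchanged. It also describes similar RNA levels of Dnmt1, Tet1, Tet2, Tet3, and Tdg during the conversion and lower Dnmt3a, Dnmt3b, and Dnmt3l in 2i. The tests here, against 4 hr and without serum, differ from this for Dnmt1, Tet1, Tet2, Tet3, and Dnmt3a. At 16 hr against 4 hr 3 of 24 rose and 4 fell, at 24 hr 5 rose and 4 fell, and at 32 hr 4 rose and 5 fell, where 16.4%, 20.5%, and 25.3% of all genes passed in either direction. Zfp57, which binds methylated control regions, rose at 24 hr (0.86 ± 0.136 (SE), adjusted p = 0.00134), whereas Trim28, the corepressor it recruits, fell (-0.88 ± 0.176 (SE), adjusted p = 0.00511). Of the de novo methyltransferases, Dnmt3b fell at 24 hr (-2.08 ± 0.148 (SE), adjusted p = 9.04e-06), while Dnmt3a passed at no time and stood at 0.36, adjusted p = 0.100 at 24 hr. Dnmt3l, their catalytically inactive regulator, fell at 24 hr (-3.86 ± 0.288 (SE), adjusted p = 1.43e-05). The maintenance enzyme Dnmt1 rose at 32 hr (0.46 ± 0.15 (SE), adjusted p = 0.0395), and its partner Uhrf1 stood at 0.16, adjusted p = 0.414 at 24 hr. Dppa3, which shields imprinted loci in the zygote, rose at 24 hr (1.41 ± 0.246 (SE), adjusted p = 0.00237), as did Tet1 (1.20 ± 0.16 (SE), adjusted p = 0.000501), Tet2, and Tet3. Zfp445, another zinc finger protein of imprint maintenance, stood at -0.13, adjusted p = 0.585, and Ctcf, which binds the Igf2-H19 control region, at -0.09, adjusted p = 0.715. With vitC 1 of the 24 passed, Atf7ip, a partner of SETDB1 (1.39 ± 0.156 (SE), adjusted p = 0.00394).

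A further list of 40 imprinted genes outside the 38 had 38 with a row and 27 tested. At 16, 24, and 32 hr, 3, 4, and 3 of the 27 rose and 3, 5, and 4 fell, beside the same shares of all genes. Dhcr7, an enzyme of cholesterol synthesis, rose at 24 hr (1.85 ± 0.209 (SE), adjusted p = 0.000176), and Peg12 rose at 32 hr (1.73 ± 0.379 (SE), adjusted p = 0.00603). Calcr, the calcitonin receptor gene beside Peg10 and Sgce, fell at 24 hr, with 69, 8, 1, and 0 counts in 2i and 85, 10, 3, and 2 with vitC at 4, 16, 24, and 32 hr (adjusted p = 0.00293), and Dio3, a deiodinase gene of the Dlk1-Meg3 cluster, fell as well (-1.23 ± 0.337 (SE), adjusted p = 0.0222). Dio3 and Meg3 thus moved in opposite directions at 24 hr. With vitC, Ago2, an argonaute gene of the Peg13-Trappc9 cluster, was higher (0.80 ± 0.128 (SE), adjusted p = 0.0336), 1 of 27.

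The label of the cells was checked against fixed marker lists. All 7 ESC markers, among them Pou5f1, Sox2, and Nanog, were present in every library, with a summed level of 1737 to 2271 CPM. Single ESC markers went both ways. Of the 7, 2 rose and 2 fell at 16 hr, 3 rose and 1 fell at 24 hr, and 3 rose and 2 fell at 32 hr. The 1 that fell at 24 hr was Pou5f1 (-0.68 ± 0.134 (SE), adjusted p = 0.00466). Fibroblast markers summed to more at each later time than at 4 hr in both treatments. Their 6 members summed to 109, 256, 365, and 287 CPM in 2i and 93.6, 410.5, 671, and 419.8 CPM with vitC at 4, 16, 24, and 32 hr, mostly Col1a1 and Col1a2. At 24 hr 3 of the 5 tested rose and 0 fell. There Col3a1 stood at 0.10, adjusted p = 0.887 and Dcn at 0.67, adjusted p = 0.488, and Lum, a defining marker, had 0 to 4 counts per library. Primitive endoderm markers summed to 12.9, 16.6, 19, and 24.6 CPM in 2i and 10.3, 18.6, 33.2, and 32.6 CPM with vitC, and at 24 hr 2 of the 5 tested rose and 0 fell (Dab2 and Pdgfra), while Gata4 had 2 to 43 and Gata6 3 to 20 counts per library. The part of either cell type in the rises of Igf2, Peg10, H19, and Plagl1 was not tested. Most mesodermal and neural markers were scarce, with Foxf1 at 0 to 2 and Olig2 at 0 counts in all 8 libraries (which allows up to 0.158 to 0.643 CPM per library). Tubb3, at 43.7 to 174 CPM, and T, at 6.33 to 18 CPM, had the highest levels of these lists and fell at 24 hr. Kdr stood at 0.29, adjusted p = 0.657.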

How the data were processed

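RNA-seq counts of 8 libraries were used. Per the labels, the authors depleted ribosomal RNA, made TruSeq libraries. They deposited counts of reads for each Ensembl gene from HTSeq, without normalization. The submitters' processing notes name GSNAP, HTSeq, and the build NCBIM37 (mm9); the strand setting is not given in the sources used here. Symbols and exon lengths came from GENCODE M21 (32604 of 37263 identifiers matched), and promoter sequences from RefSeq. Members and lists were chosen with earlier results of these data known. The 14931 genes that reached 1 CPM of the unscaled library total in 2 or more libraries were kept, and their counts were then scaled with TMM. EdgeR 4.0.16 in R 4.3.3 was run as a quasi-likelihood test with time and treatment. It had 3 residual degrees of freedom, or 2 with a linear term for the vitC effect by hours. Adjusted p-values are Benjamini-Hochberg values over all tested genes, with a threshold of 0.05. Genes were named as all members, with values in 8 libraries for those past the threshold, and from the lists as counts with some of the members named. In simulated data of 14931 genes for 24 hr against 4 hr, changes were placed only in some of the more abundant genes. The test recovered 87% of these changes at 2-fold and 100% at 4-fold, with 9 false calls. These shares do not apply to the scarce members Plagl1, Slc22a18, Zim1, Airn, Magel2, and Dlk1. Intervals of single libraries are 95% Wilson intervals, which cover counting error only, as do floors of 3 counts. Alternatives were DESeq2 1.42.0, RLE size factors, other filters, GC and length offsets, other model terms, and leaving out each library. No 2 libraries held identical values.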

Additional observations from a re-analysis of the deposited data

How the results depend on the processing

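The directions of all members named as changed held under every alternative run. Of the 34 member calls at single times, 5 were kept under every alternative except the Lars2 covariate, and these were Igf2 at 16, 24, and 32 hr, Igf2r at 32 hr, and Impact at 32 hr. With that covariate, chosen after seeing the data, 73, 0, and 158 of all genes and 0, 0, and 0 members passed at 16, 24, and 32 hr against 4 hr, and 4 genes passed for vitC. This fit has 2 residual degrees of freedom and the share was lowest at 4 hr. Without a treatment term, 1289 genes and 3 members passed at 16 hr, 1889 and 8 at 24 hr, and 11 genes at 32 hr against 16 hr. For vitC, DESeq2 called 299 genes and 2 members, the fit without a low-count filter 690 and 2, a filter at 5 CPM 13 genes, the removal of Lars2 features 60, and the fit without the time block 0. For 32 hr against 16 hr, DESeq2 called 239 genes and 2 members, and the fit without a filter 589 and 3. The cause was not tested in these cases. With 1 library left out, 647 to 2063 genes and 1 to 7 members passed at 16 hr, 748 to 3341 and 3 to 12 at 24 hr, 1410 to 4073 and 4 to 14 at 32 hr, 0 to 458 and 0 to 2 for vitC, and 2 to 140 and 0 to 0 at 32 hr against 16 hr. The fewest came without vitC 4 hr (647), vitC 24 hr (748), 2i 32 hr (1410), and 2i 32 hr or vitC 32 hr (0, vitC). The vitC fit pairs the libraries by time, and the labels carry no replicate numbers by which to pair them otherwise. Low counts of Airn, Dlk1, Magel2, Zim1, and Nap1l5 limit what could be detected.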
